A study of Homo sapiens with 12 samples.

Results

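The loss-of-function (LOF) double mutant of EZH2, EZH2 H689A/F667I, was compared with wild-type EZH2 (EZH2 WT) by RNA-Seq. The samples were chosen by genotype label, which gave 3 replicates of the H689A/F667I line and 3 of the WT line, 6 of the 12 samples of the series, and 14263 of the 14438 genes in the count table were compared after genes at 0 in all replicates of any line were left out. All samples were HEK293T, an established human embryonic kidney cell line, and every line, WT included, was infected with a lentivirus and selected with blasticidin. The WT line received an unmutated EZH2 construct, the H689A/F667I line a construct with both substitutions, and the remaining 6 samples were the gain-of-function (GOF) lines EZH2 Y641F and EZH2 A677G with 3 replicates each, used here only where named. The endogenous EZH2 gene was still present in each line, so the mutant protein was expressed beside the cell's own enzyme. Each genotype was 1 selected line, so the effect of the mutations cannot be told apart from other differences between lines, and p-values measure the spread between replicates of these lines.

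EZH2 is the catalytic subunit of Polycomb repressive complex PRC2, which methylates lysine 27 of histone H3 at CpG-rich promoters of developmental genes and keeps them silent. Substitutions in its catalytic SET domain can raise the enzyme's trimethylation activity or remove its activity, and EZH1 is a paralog that can take its place in the complex. The comparison asks which transcripts differ when the added enzyme carries loss-of-function changes in its catalytic domain instead of the normal sequence.

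The codons changed in the construct are shown as they stand in the reference gene, since they are what separates the 2 lines by design. Residues are counted from the start codon of the GENCODE transcript ENST00000460911.5, which encodes 746 amino acids and carries the residues the line names refer to. Both codons lie on the minus strand of chromosome 7 (GRCh38), F667 in exon 17 at chr7:148810346-148810348 and H689 in exon 18 at chr7:148809338-148809340. The 27 bases shown for each span chr7:148810334-148810360 and chr7:148809326-148809352. Capitals mark the codon of the residue that was changed (F667I, phenylalanine to isoleucine, and H689A, histidine to alanine), and the bases of the mutant codons are not shown.
F667 in the reference: tgcagctttctgTTCaacttgaacaat
H689 in the reference: cgttttgcaaatCATtcggtaaatcca

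The 6 libraries summed to between 32137700 and 39407727 counts, and no gene of the table was at 0 in any WT replicate. Of the 9 genes listed as typical of HEK293T, 8 were compared and were present in all 6 libraries, among them VIM at 259 to 272 CPM (counts scaled to the library size and by the trimmed mean of M-values, TMM) and CDH2 at 109 to 121 CPM. The other one, PAX2, was at 0 in the A677G line and was therefore left out. Of 11 marker genes of blood, endothelial, stromal, liver, muscle and epithelial cells, 9 were not listed in the table, and the other 2, LUM and EPCAM, were at no more than 2.61 and 1.06 CPM.

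Few transcripts differed between the lines. With edgeR's quasi-likelihood test and an adjusted p-value under 0.05, 43 genes (0.301% of those tested) differed, 23 lower (0.161%) and 20 higher (0.14%) in H689A/F667I. The changes were small: the median was -0.27 on the log2 scale among the genes that fell and 0.41 among those that rose, 27 of the 43 changed by less than 0.5 on the log2 scale, and 7 changed by more than 2-fold either way. The replicates of the lines did not overlap for any of the 43, and the same was true of 15% of all genes tested. The calls of 10 genes (ST6GAL2, NWD2, HIST1H3I, KCNK2, PCNA, CCND1, ZNF711, FADS2, TMSB4X and COL5A2) were lost whenever any single replicate was left out. At an unadjusted p under 0.05 there were 585 lower and 599 higher genes, 8.30% of all.

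**Figure D1:**
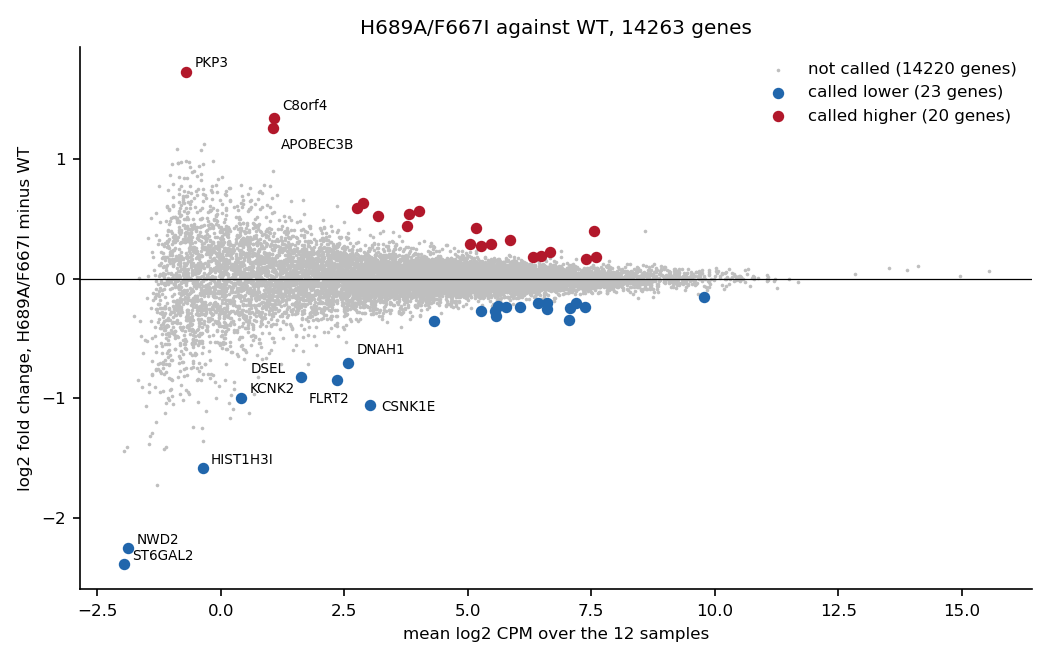
Log2 fold change of H689A/F667I against WT (vertical axis) by mean log2 CPM over the 12 samples (horizontal axis) for 14263 genes, with the 23 called lower in blue, the 20 called higher in red and genes with an absolute change of at least 0.65 that were called named. Most genes lie near 0, and the called genes with the largest changes, ST6GAL2 and NWD2 below and PKP3 above, have low counts.

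Across all genes the log2 fold change had a median of 0.0024 and an SD of 0.179, with 5th and 95th percentiles of -0.26 and 0.26. Replicates of WT differed from each other by a root mean square of 0.241 to 0.264 on the log2 scale, replicates of H689A/F667I by 0.261 to 0.275, and a WT sample from an H689A/F667I sample by 0.260 to 0.290. The distance between the lines was thus close to the distance between replicates of a line, while H689A/F667I samples differed from GOF samples by 0.321 to 0.381. The precision was enough to bound most genes: the 95% interval of the fold change lay between -1 and 1 for 13460 genes (94.4%) and between -0.5 and 0.5 for 11266 genes (79.0%). Where mean expression reached 1 on the log2 CPM scale, as in 12040 genes, it lay between -0.5 and 0.5 for 11244 (93.4%).

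EZH2 itself was the gene with the smallest p-value. It was at 157, 163 and 154 CPM in the WT replicates and at 208, 210 and 206 CPM in the H689A/F667I replicates. Every H689A/F667I value lay above every WT value. The log2 fold change was 0.40 (SE 0.040, 95% interval 0.31 to 0.48, edgeR adjusted p = 1.15e-07), or 1.32-fold. The counts are per gene symbol, so transcripts of the construct and of the endogenous gene at chr7:148807257-148884321 cannot be told apart. EZH2 was at 218 ± 9.61 CPM (SD, n = 3) in Y641F and 173 ± 8.57 CPM (SD, n = 3) in A677G, and the H689A/F667I line differed from the mean of those lines by 0.10 on the log2 scale (edgeR adjusted p = 0.0530).

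The other subunits of PRC2 were near their WT levels. Of 6 core genes tested, EZH2 rose and none fell, and the list median was -0.03 on the log2 scale, beside 0.0024 over all genes. The paralog EZH1 was at 15.9 CPM in WT and 14.7 CPM in H689A/F667I, with a log2 fold change of -0.11 and a 95% interval of -0.29 to 0.06. SUZ12 and EED, which the enzyme needs for activity, gave -0.03 and 0.03, and the histone-binding subunits RBBP7 and RBBP4 gave -0.06 and -0.02. None of the 8 accessory subunits passed the test (median 0.0057), the smallest p being that of PHF1, which tethers the complex to chromatin, at -0.31 (edgeR adjusted p = 0.373). JARID2, AEBP2, MTF2 and PHF19, other targeting subunits, gave 0.05, -0.07, 0.00 and 0.10, and the remaining LCOR, LCORL and C17orf96 gave 0.01, 0.01 and 0.00.

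**Figure D2:**
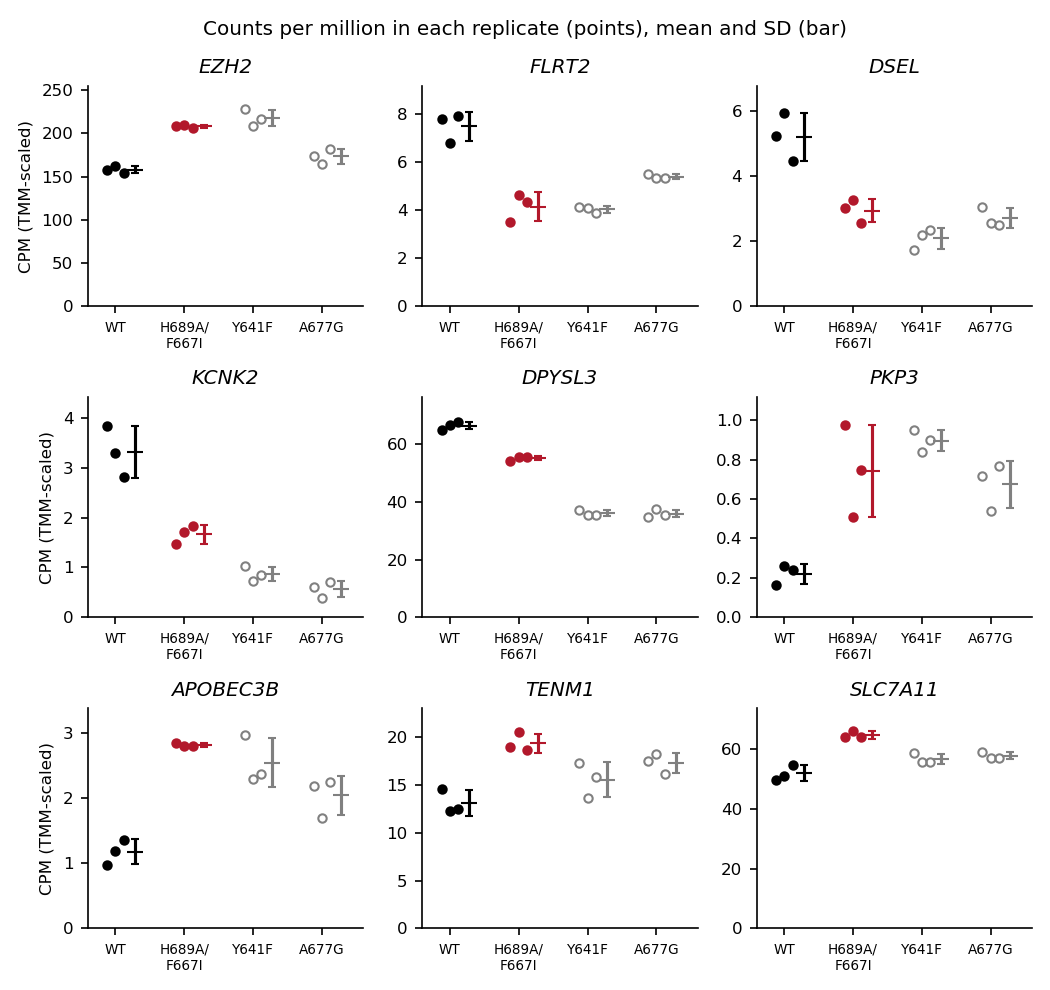
TMM-scaled CPM (vertical axis, from 0) of 9 called genes in each replicate of WT (black), H689A/F667I (red) and, for reference, Y641F and A677G (grey, open), with the mean and SD of each line beside the points. In each panel the 3 H689A/F667I points lie on 1 side of the 3 WT points, as for EZH2 at 206 to 210 CPM against 154 to 163 CPM.

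The genes that fell are taken first, beginning with those known from neurons, the cell surface and glycan synthesis. FLRT2, a leucine-rich repeat membrane protein that binds latrophilins and UNC5 receptors, was at 7.77, 6.78 and 7.90 CPM in WT and at 3.49, 4.61 and 4.34 CPM in H689A/F667I, without overlap. Its log2 fold change was -0.85 (SE 0.13, 95% interval -1.12 to -0.58, edgeR adjusted p = 0.000822), the smallest p among the genes that fell. It lies at chr14:85530144-85654428 on the plus strand.

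DSEL, an epimerase-like enzyme of dermatan sulfate synthesis, was at 5.22, 5.93 and 4.46 CPM in WT and at 3.00, 3.26 and 2.54 CPM in H689A/F667I. The ranges did not overlap, and the log2 fold change was -0.82 (SE 0.17, edgeR adjusted p = 0.0164). The sialyltransferase gene ST6GAL2 had the largest drop, -2.39 (95% interval -3.42 to -1.36, edgeR adjusted p = 0.0216), on 20, 33 and 22 counts in WT and 6, 6 and 2 in H689A/F667I. NWD2, which encodes a protein with NACHT and WD repeat domains, had 40, 23 and 24 counts in WT and 6, 8 and 4 in H689A/F667I, a log2 fold change of -2.25 (edgeR adjusted p = 0.0280). KCNK2, a background potassium channel, changed by -0.99 with a 95% interval of -1.46 to -0.53 (edgeR adjusted p = 0.0443). At these counts the sizes of the last 3 changes are known only within wide intervals.

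Neurofilament chains, which are expressed in HEK293T, fell slightly. NEFM was at 184, 192 and 178 CPM in WT and at 140, 152 and 144 CPM in H689A/F667I, without overlap, with a log2 fold change of -0.35 (SE 0.062, edgeR adjusted p = 0.00304). That call was lost with DESeq2 (adjusted p = 0.140), with edgeR's robust fit (adjusted p = 0.384) and without WT replicate 2 or H689A/F667I replicate 1. NEFL changed by -0.21 (edgeR adjusted p = 0.0280), while the third neuronal filament gene listed for this cell line, INA, gave 0.02 (edgeR adjusted p = 0.978). DPYSL3, a collapsin response mediator of axon growth, was at 65.1, 66.8 and 67.7 CPM in WT and at 54.4, 55.8 and 55.6 CPM in H689A/F667I. Its replicates were tight in both lines, and the log2 fold change was -0.27 (SE 0.048, edgeR adjusted p = 0.00304).

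FAM155B, an auxiliary subunit of a sodium leak channel, was at 26.0, 22.3 and 24.2 CPM in WT and at 18.4, 19.1 and 19.2 CPM in H689A/F667I (log2 fold change -0.35, SE 0.073, edgeR adjusted p = 0.0155). The neural transcription factor gene POU3F3 was at 59.8, 62.2 and 60.3 CPM in WT and at 49.1, 52.4 and 52.8 CPM in H689A/F667I (log2 fold change -0.24, SE 0.050, edgeR adjusted p = 0.0155). Neither gene's ranges overlapped.

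Among genes of the cytoskeleton and signalling, DIAPH1, a formin that nucleates actin filaments, was at 155, 142 and 142 CPM in WT and at 116, 124 and 130 CPM in H689A/F667I. It changed by -0.25 (SE 0.045, edgeR adjusted p = 0.00369), and the actin crosslinker FLNA and the G protein subunit GNB1 changed by -0.16 and -0.20. The axonemal dynein chain DNAH1 was at 7.90, 7.56 and 7.87 CPM in WT and at 3.87, 3.95 and 6.64 CPM in H689A/F667I, where 1 replicate stood closer to WT than the other 2 (log2 fold change -0.70, SE 0.15, edgeR adjusted p = 0.0192). CSNK1E, a casein kinase of circadian and WNT signalling, was at 13.3, 13.6 and 10.2 CPM in WT and at 3.17, 7.54 and 7.17 CPM in H689A/F667I (log2 fold change -1.06, SE 0.21, edgeR adjusted p = 0.0121). Its replicates were the most uneven of these genes, the call was lost with DESeq2 (adjusted p = 0.325) and with edgeR's robust fit (adjusted p = 0.475), and the annotation holds a readthrough gene, TPTEP2-CSNK1E, on the same strand, which makes its level uncertain.

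Several chromatin and RNA-processing genes were also lower. BAHCC1, a protein with a chromatin-binding BAH domain, was at 41.6, 41.4 and 40.6 CPM in WT and at 33.0, 34.4 and 35.1 CPM in H689A/F667I (log2 fold change -0.27, SE 0.056, edgeR adjusted p = 0.0155). ZNF703, a zinc finger corepressor, was at 104, 107 and 110 CPM in WT and at 83.8, 87.2 and 98.7 CPM in H689A/F667I (log2 fold change -0.25, SE 0.049, edgeR adjusted p = 0.00922). The lines did not overlap for either gene. WIZ, a zinc finger partner of the EHMT histone methyltransferases, TNRC18, another BAH domain protein, and SRRM2, a splicing scaffold of nuclear speckles, changed by -0.23, -0.20 and -0.23. The replication-dependent histone gene HIST1H3I had 32, 40 and 40 counts in WT and 14, 10 and 13 in H689A/F667I, a log2 fold change of -1.58 (edgeR adjusted p = 0.0280), but H3 genes share most of their coding sequence, so its counts are uncertain.

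Among metabolic genes that fell, SRM, spermidine synthase, changed by -0.23 (edgeR adjusted p = 0.0443). Its call was lost under 4 of 14 other settings and kept in 2 of the 6 fits that left out a replicate.

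**Figure D3:**
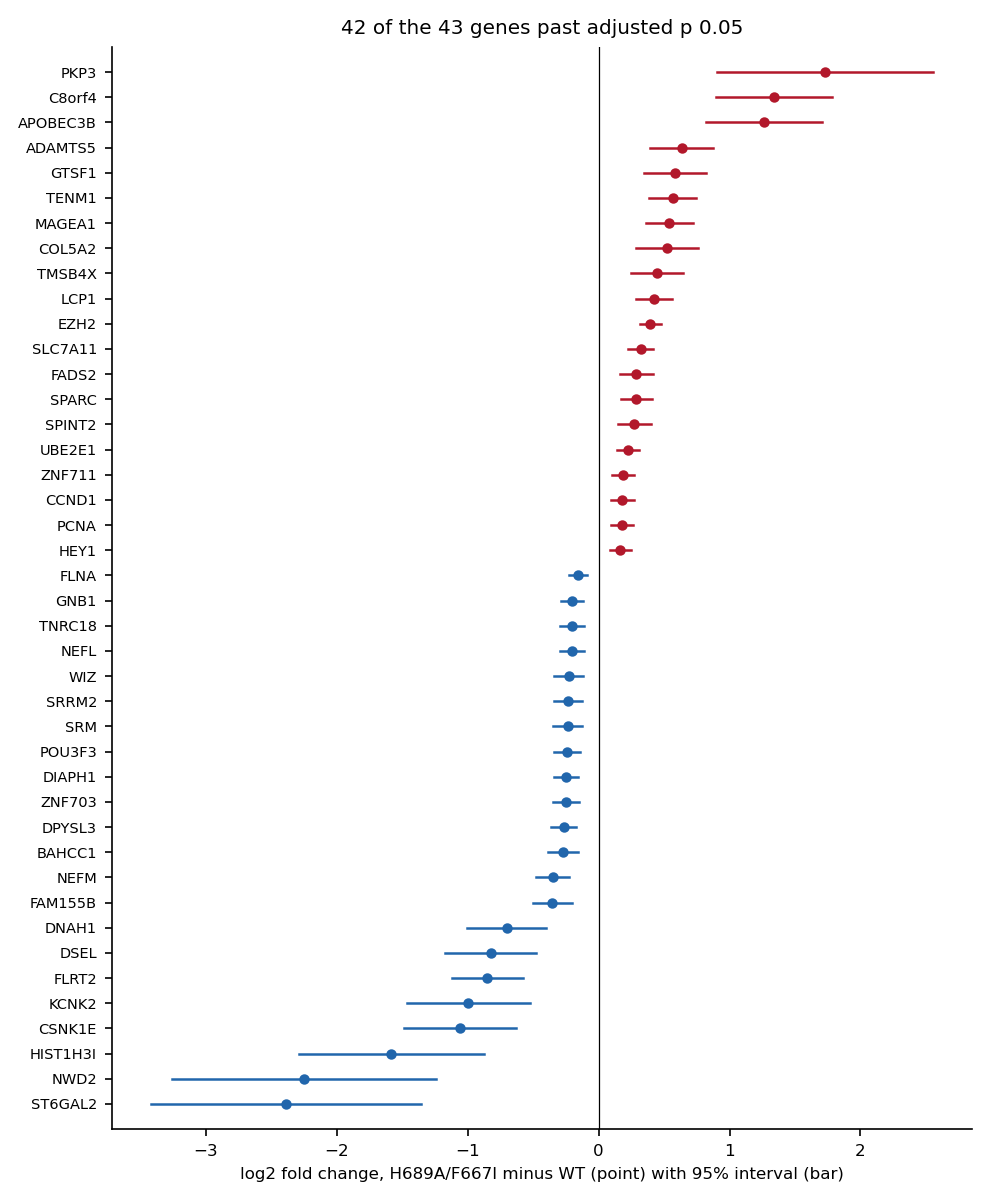
Log2 fold change of H689A/F667I against WT (horizontal axis) for 42 of the 43 called genes (vertical axis, ordered by change), as the estimate (point) and its 95% interval (bar), blue for lower and red for higher. Intervals are widest for ST6GAL2 and NWD2, while FLNA at -0.16 and HEY1 at 0.17 are the called genes nearest to 0.

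The genes that rose included matrix, adhesion and actin genes. ADAMTS5, a protease that cleaves the proteoglycan aggrecan, was at 5.95, 6.21 and 4.74 CPM in WT and at 8.77, 8.71 and 8.88 CPM in H689A/F667I (log2 fold change 0.64, SE 0.12, edgeR adjusted p = 0.00541). COL5A2, a fibrillar collagen chain, was at 8.69, 7.89 and 9.14 CPM in WT and at 11.8, 12.5 and 12.6 CPM in H689A/F667I (log2 fold change 0.52, SE 0.12, edgeR adjusted p = 0.0295). Ranges were separate for both, and the matricellular protein gene SPARC changed by 0.29 (edgeR adjusted p = 0.0148). The call of COL5A2 was lost also with library totals alone (edgeR adjusted p = 0.0663), and that of SPARC was kept in 2 of the 6 fits that left out a replicate. Of 70 genes of the extracellular matrix and its proteases that were tested, these 3 rose and none fell. The list median was 0.04, and 0.14% of all genes were called higher. The list was drawn up with earlier results of these data known, so this count says nothing about matrix genes as a class.

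TENM1, a teneurin that serves as a ligand of latrophilins at synapses, was at 14.6, 12.2 and 12.5 CPM in WT and at 19.0, 20.6 and 18.7 CPM in H689A/F667I. The log2 fold change was 0.57 (SE 0.089, edgeR adjusted p = 0.000822), with no overlap between the lines. TENM1 lies at chrX:124375903-125204312 and shares part of its span with STAG2 on the opposite strand. Among the 8 teneurin, FLRT and latrophilin genes tested, TENM1 rose and FLRT2 fell, while 0.301% of all genes were called. The next smallest p was that of TENM3 at -0.09 (edgeR adjusted p = 0.663). This list was drawn up with earlier results of these data known, so its count says nothing about these families. The desmosomal plakophilin PKP3 had the largest rise, 1.73 (95% interval 0.91 to 2.55, edgeR adjusted p = 0.0458), on 6, 10 and 8 counts in WT and 36, 20 and 24 in H689A/F667I. Its call was kept in 1 of the 6 fits that left out a replicate. SPINT2, a membrane-bound inhibitor of serine proteases, changed by 0.27 (edgeR adjusted p = 0.0434).

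LCP1, an actin-bundling plastin best known from leukocytes, was at 32.0, 29.4 and 31.7 CPM in WT and at 38.5, 42.3 and 44.3 CPM in H689A/F667I (log2 fold change 0.43, SE 0.068, edgeR adjusted p = 0.000822). TMSB4X, which sequesters actin monomers, was at 12.4, 13.8 and 12.04 CPM in WT and at 16.7, 16.9 and 18.5 CPM in H689A/F667I (log2 fold change 0.44, SE 0.098, edgeR adjusted p = 0.0280). Every LOF replicate was above every WT replicate for both genes. TMSB4X has processed copies elsewhere in the genome, so its counts are less certain.

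The promoters of FLRT2 and TENM1 are shown because these genes had the smallest p-values in each direction after EZH2 itself was set aside (apart from SLC7A11, which has no entry in the promoter table used), and because PRC2 is known to act at CpG-rich promoters. Each runs from 250 bases before to 50 after the gene's start in RefSeq (GRCh38.p14), chr14:85529894-85530193 on the plus strand for FLRT2 and chrX:125204263-125204562 on the minus strand for TENM1, with CpG dinucleotides in capitals.
FLRT2 promoter: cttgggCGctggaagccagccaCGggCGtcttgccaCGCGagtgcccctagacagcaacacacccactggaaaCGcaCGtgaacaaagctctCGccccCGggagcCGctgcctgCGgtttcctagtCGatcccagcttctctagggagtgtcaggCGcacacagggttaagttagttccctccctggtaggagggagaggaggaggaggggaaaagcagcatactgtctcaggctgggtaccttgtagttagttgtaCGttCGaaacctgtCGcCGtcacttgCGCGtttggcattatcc
TENM1 promoter: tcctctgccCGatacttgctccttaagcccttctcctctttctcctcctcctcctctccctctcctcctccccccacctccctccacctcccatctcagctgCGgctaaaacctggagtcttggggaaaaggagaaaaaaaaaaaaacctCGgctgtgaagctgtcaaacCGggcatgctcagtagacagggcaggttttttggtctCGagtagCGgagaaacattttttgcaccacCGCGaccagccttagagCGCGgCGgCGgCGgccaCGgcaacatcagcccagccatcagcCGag
FLRT2 has 19 CpG in these 300 bases and TENM1 15, beside a median of 26 over the 11028 tested genes with an entry. Of the called genes, 28 had an entry: the median was 31.5 CpG among 18 that fell and 18.5 among 10 that rose. At least 10 CpG were present in 15 of those that fell and 9 of those that rose, and in 89.4% of all.

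Of the genes known from the germline, MAGEA1, a cancer-testis antigen on the X chromosome, was at 11.6, 11.5 and 12.01 CPM in WT and at 17.8, 17.5 and 15.8 CPM in H689A/F667I (log2 fold change 0.54, SE 0.088, edgeR adjusted p = 0.000995). GTSF1, a factor of the piRNA pathway, was at 5.82, 4.84 and 6.12 CPM in WT and at 8.47, 8.28 and 8.41 CPM in H689A/F667I (log2 fold change 0.59, SE 0.12, edgeR adjusted p = 0.0121). Replicates were separate for both. The zinc finger gene ZNF711, placed on the same cancer-testis list, changed by 0.19 (edgeR adjusted p = 0.0396), a call lost whenever any single replicate was left out. Of the 11 genes on that list 3 rose and none fell, and the list median was 0.16. Over all genes 0.14% were called higher. The members were chosen with earlier results of these data known, so this count says nothing about germline genes as a class.

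APOBEC3B, a DNA cytidine deaminase, was at 0.974, 1.19 and 1.36 CPM in WT and at 2.84, 2.80 and 2.79 CPM in H689A/F667I. The LOF values were all more than the highest WT value, and the log2 fold change was 1.26 (SE 0.22, 95% interval 0.82 to 1.70, edgeR adjusted p = 0.00202). It was the only one of 5 APOBEC3 genes tested that passed, while 0.14% of all genes were called higher. The list was drawn up with earlier results of these data known, so this count says nothing about the family. APOBEC3D, the next in order of p, gave 0.83 (edgeR adjusted p = 0.434), and the list median was -0.03. C8orf4, also named TCIM and known as a regulator of WNT signalling, was at 1.35, 1.24 and 1.93 CPM in WT and at 4.17, 3.11 and 4.16 CPM in H689A/F667I, likewise without overlap (log2 fold change 1.34, SE 0.22, edgeR adjusted p = 0.000995).

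Of the metabolic genes that rose, SLC7A11, the cystine and glutamate exchanger that supplies cysteine for glutathione, was at 49.7, 51.1 and 54.8 CPM in WT and at 64.1, 66.1 and 63.9 CPM in H689A/F667I. The log2 fold change of 0.32 (SE 0.048, edgeR adjusted p = 0.000551) had the smallest p after EZH2, and the ranges were far apart for a change of this size. FADS2, a fatty acid desaturase, was at 31.6, 31.9 and 30.8 CPM in WT and at 39.1, 37.0 and 39.2 CPM in H689A/F667I (log2 fold change 0.29, SE 0.063, edgeR adjusted p = 0.0264). FADS2 overlaps FADS1 and FEN1 in the annotation.

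The cell cycle genes CCND1, which encodes cyclin D1, and PCNA, the sliding clamp of DNA replication, changed by 0.18 each (edgeR adjusted p = 0.0443 for both). Both calls were lost in all 6 fits that left out 1 replicate and under 5 of 14 other settings. They were the 2 of 29 genes of the list of CDK inhibitors, D cyclins and p53 targets that passed. The list median was 0.02, and 0.14% of all genes were called higher. As this list was also drawn up with earlier results known, the count says nothing about such genes as a class. HEY1, a Notch target, and UBE2E1, a ubiquitin-conjugating enzyme, changed by 0.17 and 0.22. In all, 8 of the 43 called genes overlapped another tested gene on the opposite strand (CCND1, FADS2, LCP1, SPINT2, SRRM2, TENM1, TNRC18 and UBE2E1), and whether the counting used strand is not given in the sources used here.

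Chromatin and developmental gene lists held no called gene beyond EZH2. Over all genes 0.301% were called, so a list of this size would seldom hold a call. The absence of calls therefore does not set these lists apart, nor the immune, integrin and metabolic lists below. The called chromatin genes BAHCC1, TNRC18, WIZ and ZNF703 are not on them. None of 25 PRC1 genes passed (median 0.01), the 2 smallest p-values being those of RYBP at 0.16 (edgeR adjusted p = 0.379) and CBX6 at -0.09 (edgeR adjusted p = 0.428). Of the enzymes that act on the same lysine, none of 4 passed (median -0.11), with the acetyltransferases CREBBP and EP300 at -0.14 and -0.09 (edgeR adjusted p = 0.447 and 0.654). Among 12 genes of H3K36 methylation, 11 had a fold change below 0 but none passed, and all 12 intervals lay between -0.5 and 0.5 (median -0.05); KDM2A and NSD1 gave -0.11 and -0.07 (edgeR adjusted p = 0.429 and 0.599). No gene of the DNA methylation list passed out of 7 (median -0.03), where DNMT1 and UHRF1 gave -0.07 and -0.06 (edgeR adjusted p = 0.629 and 0.744).

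HOX genes, the classic targets of Polycomb repression, were near WT levels. None of the 36 tested passed, 25 were below 0 and 11 above, the median was -0.03 and the 95% interval lay between -0.5 and 0.5 for 31. HOXA5 gave -0.14 (edgeR adjusted p = 0.416). Of 56 developmental transcription factor genes none passed, with 36 below 0 and 20 above (median -0.03), and FOXD1 gave -0.22 (edgeR adjusted p = 0.168). POU3F3, described above, was called but is not on that list.

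**Figure D4:**
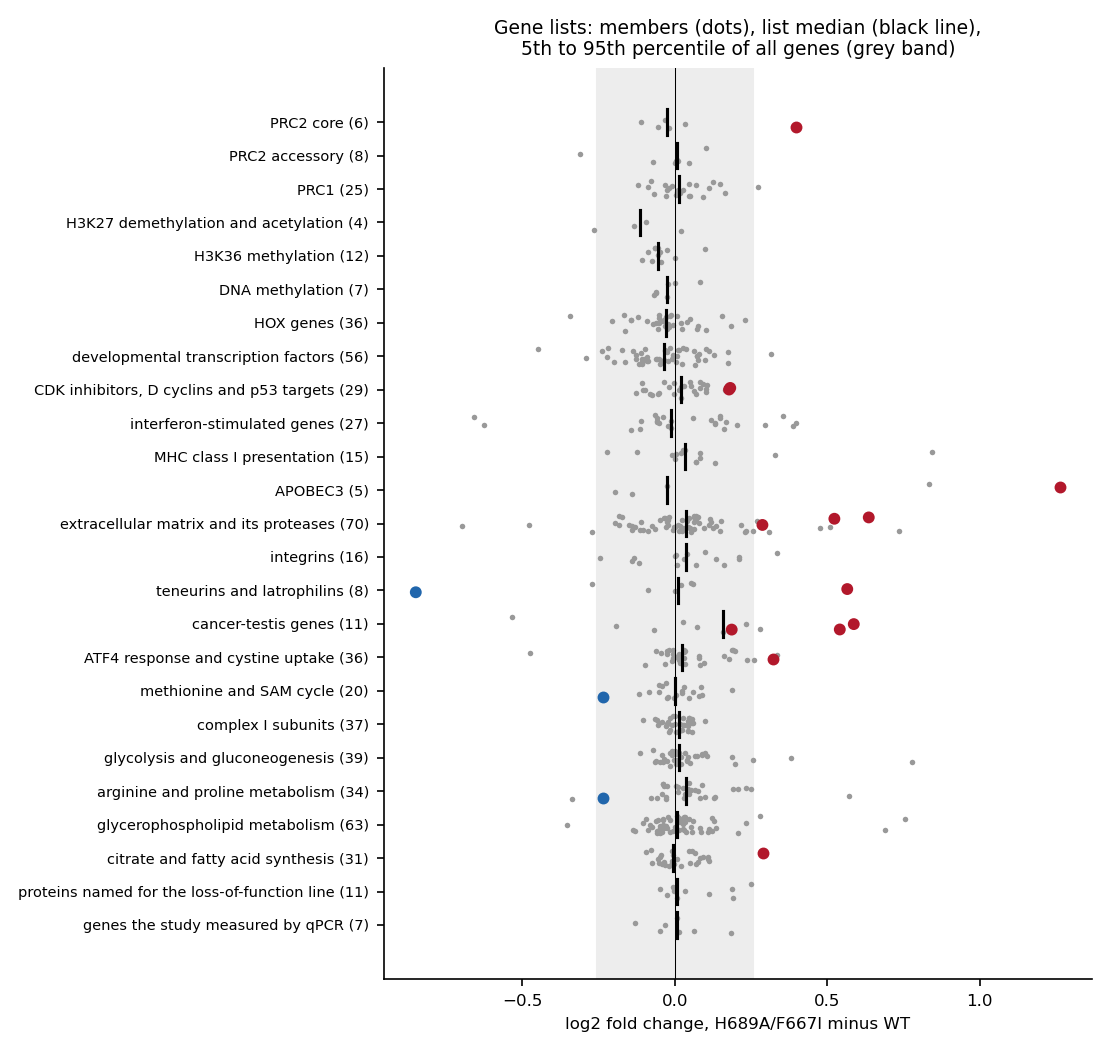
Log2 fold change of H689A/F667I against WT (horizontal axis) for the tested members of each gene list (vertical axis, number tested in brackets), as grey dots, with called members in blue (lower) or red (higher), the list median as a black line and the 5th to 95th percentile of all genes as a grey band. List medians lie between -0.11 and 0.16, and most members lie inside the band.

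No interferon-stimulated gene passed out of 27 tested (median -0.01), with LGALS3BP at 0.39 and IFIT5 at 0.17 (edgeR adjusted p = 0.124 and 0.478). None of 15 genes of MHC class I presentation passed (median 0.03), where NLRC5, the transactivator of these genes, gave 0.84 with a 95% interval of 0.12 to 1.57 and HLA-F gave 0.33 (edgeR adjusted p = 0.479 and 0.591). The 16 integrin genes gave no call (median 0.04), ITGA6 being at 0.21 and ITGAE at 0.13 (edgeR adjusted p = 0.187 and 0.638).

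The metabolic lists were chosen because the study examined the metabolism of this line. None of 37 complex I subunit genes passed, the fold changes ran from -0.10 to 0.10, and all 37 intervals lay between -0.5 and 0.5. NDUFV2 and NDUFA8 gave 0.10 and -0.10 (edgeR adjusted p = 0.576 and 0.599). None of 39 genes of glycolysis and gluconeogenesis passed (median 0.01), with GPI at -0.11 and the glucose transporter gene SLC2A3 at 0.78 (edgeR adjusted p = 0.269 and 0.288). None of 63 glycerophospholipid genes passed either (median 0.0068), with GPCPD1 at 0.28 and PLD1 at -0.35 (edgeR adjusted p = 0.0860 and 0.435). SRM was the only gene called among 20 of the methionine and SAM cycle (median -0.0008) and among 34 of arginine and proline metabolism (median 0.04). FADS2 was the only one of 31 of citrate and fatty acid synthesis (median -0.0048), and SLC7A11 the only one of 36 of the ATF4 response and cystine uptake (median 0.02). Of all genes, 0.301% were called. These lists were also drawn up with earlier results of these data known, so single calls say nothing about the pathways.

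Transcripts of 11 proteins that the study names for the LOF line were also examined, a list that is not independent of this cell line. None passed, and the median was 0.0069. FER, a tyrosine kinase, was at 50.9 CPM in WT and 58.1 CPM in H689A/F667I (log2 fold change 0.19, 95% interval 0.09 to 0.30, edgeR adjusted p = 0.139). The study, which used an exact test for transcripts, reports FER as raised in the LOF line at both the transcript and the protein level. The direction here was the same, but the transcript did not pass the quasi-likelihood test. The value of FER in the exact test run as an alternative is not reported here, and why the calls differ was not tested. NKX2-4 gave 0.25, ZNF706 0.19 and GTF2B 0.11, and the other 7, EGFR, DNMT3A, PIM1, GTF2A1, NR2C1, SCOC and ZNF579, lay between -0.05 and 0.03. A last list held genes of the study's qPCR, with its reference gene GAPDH. COL4A4, named in the study's results, and COL4A1, named in its methods, were both included. The study's text reports that qPCR for lower levels in the GOF lines than in WT, a comparison not made here for these genes. None of the list's 7 members passed (median 0.0074), and COL4A1 gave 0.06 and MALAT1 -0.03 (edgeR adjusted p = 0.855 and 0.910).

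The GOF lines give the levels of the called genes in other mutants with the same WT samples as reference, so the 3 comparisons share their controls and are given side by side. ST6GAL2 was at 0.686 CPM in WT, 0.126 CPM in H689A/F667I, 0.114 CPM in Y641F and 0.183 CPM in A677G. For FLRT2 the log2 fold changes against WT were -0.85 in H689A/F667I, -0.89 in Y641F and -0.47 in A677G, and for PKP3 they were 1.73, 2.01 and 1.60. For KCNK2 they were -0.99, -1.92 and -2.54, and for DPYSL3 they were -0.27, -0.88 and -0.89. These are examples from the genes called here, and the plot of the 3 mutant lines gives the others. COL5A2 gave 0.52, -0.04 and -0.17, TMSB4X gave 0.44, -0.03 and -0.03, and CCND1 gave 0.18, -0.04 and -0.09.

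A direct test of H689A/F667I against the mean of Y641F and A677G called 1792 genes (12.6%), 544 lower and 1248 higher. Of the 43 genes, 21 were among them, in a test that uses the same H689A/F667I replicates. All 13 of those that had risen over WT were also above the GOF mean, among them C8orf4 by 1.08, COL5A2 by 0.63, TMSB4X by 0.47, FADS2 by 0.30 and CCND1 by 0.25 (edgeR adjusted p = 2.47e-05, 1.35e-05, 7.22e-05, 7.20e-05 and 4.30e-06). Of the 8 that had fallen below WT, 4 were also below the GOF mean, namely HIST1H3I, BAHCC1, TNRC18 and GNB1, at differences of -1.35, -0.22, -0.22 and -0.13. The other 4, KCNK2, NEFM, DPYSL3 and NEFL, were above it by 1.24, 0.44, 0.61 and 0.60, so that their level in H689A/F667I stood between WT and the GOF lines. The largest of their edgeR adjusted p-values was 0.000117.

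**Figure D5:**
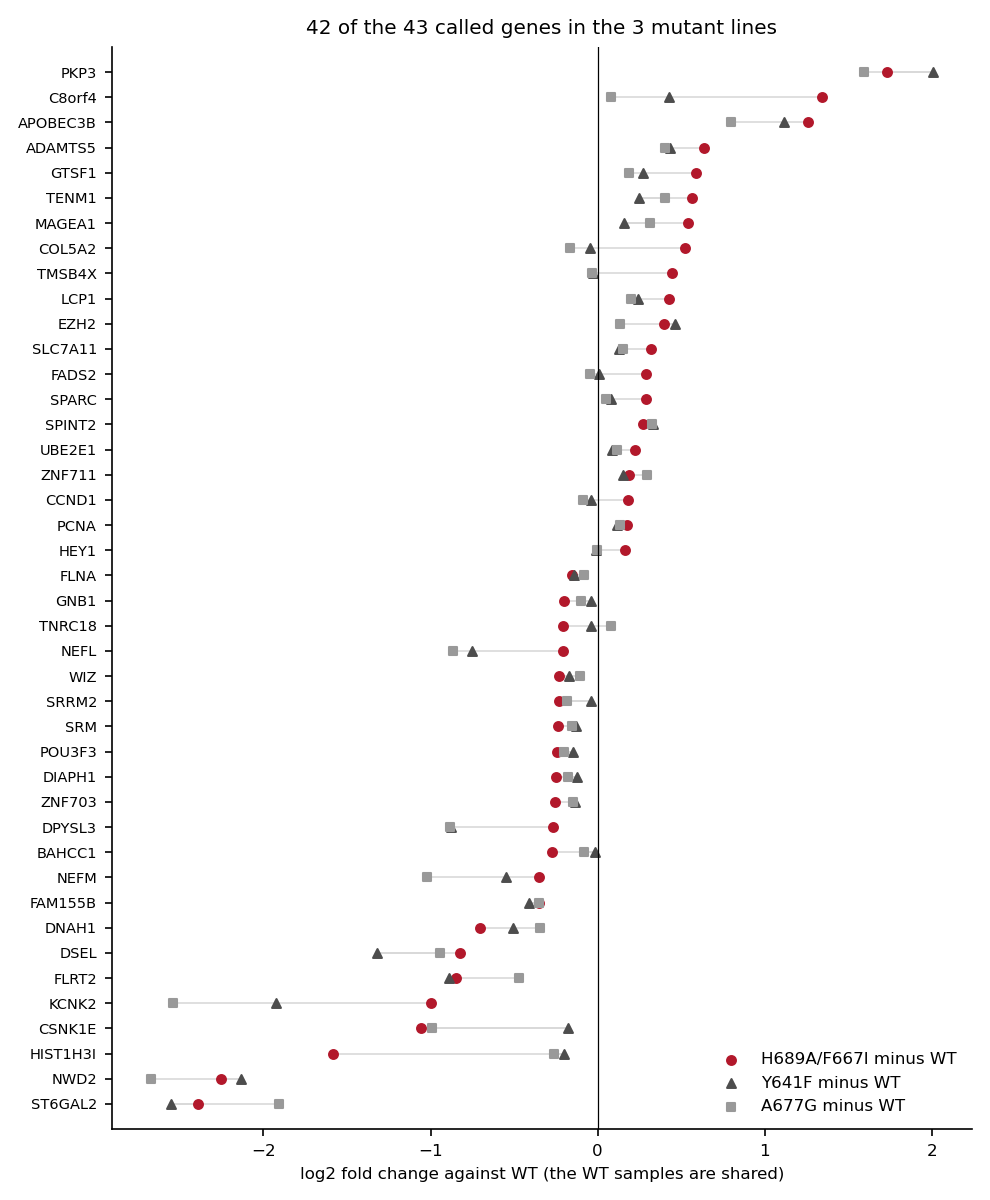
Log2 fold change against WT (horizontal axis) of 42 of the 43 called genes (vertical axis) in H689A/F667I (red circles), Y641F (dark triangles) and A677G (grey squares), all against the same WT samples. For KCNK2 and DPYSL3 the GOF values lie farther from 0 than the H689A/F667I value, while for COL5A2, TMSB4X and CCND1 they lie at or below 0.

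Base composition differed between the genes that fell and those that rose. GC content and length were taken from the longest annotated transcript of each gene, which need not be the one expressed. The median GC content was 57.0% for the genes that fell, 45.3% for those that rose and 47.8% for all tested. Median transcript lengths were 5492, 3842.5 and 3840 bases. Across genes, which are not independent, the log2 fold change had a Spearman correlation of -0.093 with GC content and -0.084 with length. The GC trend also differed between replicates. At 65 to 70% GC the median log2 deviation from the WT mean was 0.002, 0.053 and -0.053 in WT and -0.024, -0.034 and -0.009 in H689A/F667I. Above 70% GC, in 53 genes, it was 0.028, 0.079 and -0.055 in WT and -0.065, -0.072 and -0.010 in H689A/F667I. With each sample's GC trend removed, 35 of the 43 genes stayed called, at 93.2% to 103% of their log2 fold change. The other 8 (SRM, WIZ, TNRC18, FLNA, HEY1, PCNA, CCND1 and ZNF711) were no longer called, at 90.1% to 99.02% of theirs. By chromosome, the medians farthest from 0 were those of chromosomes 20, 8 and 13, at 0.05, 0.03 and 0.03, with 70.4% of 378 genes above 0 on chromosome 20. PCNA was the only called gene there.

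Genes left out of the test held a pattern of their own. The table lists 100 genes at 0 in all 3 H689A/F667I replicates, but no gene at 0 in only 1 or 2 of them. Those 100 had WT mean counts of 6.33 to 22, with a median of 13.3, and 59 of them were also at 0 in all A677G replicates. Among the genes tested, 500 had a WT mean count of 22 or less, and the lowest H689A/F667I mean count was 4.67. The 3 with the highest WT means were SGK3 with 12, 27 and 27 counts, SMC5-AS1 with 33, 15 and 10 and MANEA-AS1 with 14, 17 and 25, each listed at 0 in every H689A/F667I replicate, where a count of 0 allows up to 3 counts per library and covers counting error only. These values were not read as a difference in expression.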

How the data were processed

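RNA of HEK293T lines was sequenced from TruSeq Stranded mRNA libraries. Per the labels and the study's methods, the authors trimmed reads with Trim Galore 0.6.5, aligned them to GRCh38 with STAR 2.7.9a and estimated transcripts with Salmon 1.2.0 on a GENCODE annotation. They tested with edgeR 3.16. The deposited values are raw counts, whole numbers listed by gene symbol and not normalized by the authors. How Salmon estimates became counts per symbol, and which filter left 14438 genes, is not given in the sources used here.

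From the deposited counts, 175 genes at 0 in all replicates of a line were left out, and the remaining 14263 all passed filterByExpr. The test was run with edgeR 4.0.16 under R 4.3.3: TMM factors, quasi-likelihood fit to all 12 samples with 1 coefficient per line, H689A/F667I minus WT, Benjamini-Hochberg adjustment over all genes tested, threshold 0.05. The study's exact test was run as an alternative. The common biological coefficient of variation was 0.047. CPM are TMM-scaled, log2 CPM used a prior count of 2, and intervals are 95%. The procedure was tested on simulated data.

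Called genes whose log2 CPM averaged 1 or more and whose replicates did not overlap were given in full for the 12 largest changes in each direction, other called genes by log2 fold change. Further genes came from gene lists (called members, or else the 2 with the smallest p), proteins named by the study and the PRC2 subunits. The rule was extended to counts of low genes after their values were seen. Of the genes that fit the rule, 1 called gene and 2 list members are not reported here. The groups, lists and named genes were chosen with earlier results of these data known. Of the symbols, 13272 matched a GENCODE v44 name, 806 a RefSeq synonym and 360 neither.

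Alternatives were other tests (edgeR's exact test, DESeq2 1.42.0, limma 3.58.1 voom, a robust fit), scalings, filters on low counts, samples in the fit, a replicate block, thinned counts, removal of GC trends and leaving out each replicate.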

Additional observations from a re-analysis of the deposited data

Results flagged for a closer look

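MMP14, a membrane-bound matrix metalloprotease, was outside the comparison because it was listed at 0 in every A677G replicate. Its counts were 20, 16 and 7 in the WT replicates and 85, 110 and 94 in the H689A/F667I replicates, without overlap. With such genes kept, its log2 fold change was 2.75 (edgeR quasi-likelihood test, adjusted p = 2.16e-05). That change was larger than that of any of the 20 genes called higher in the comparison. Adjusted p-values of that fit cannot be set beside those of the comparison. For ST6GAL2 the edgeR adjusted p was 0.00540 there and 0.0216 in the comparison.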

How the results depend on the processing

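None of the 43 genes changed sign in any fit. Under each of 14 settings that kept all replicates 23 were called, and NWD2 was called under the 13 that could test it. In the 6 fits that left out 1 replicate, 4 to 20 genes were lower and 7 to 16 higher: 5 and 7 without WT replicate 1, 6 and 11 without WT replicate 2, 15 and 10 without WT replicate 3, 4 and 7 without H689A/F667I replicate 1, 9 and 10 without H689A/F667I replicate 2, and 20 and 16 without H689A/F667I replicate 3. These fits have fewer samples. In every fit 9 genes were called, among them FLRT2, DPYSL3, SLC7A11, EZH2, LCP1, MAGEA1, TENM1 and C8orf4. Beside 23 lower and 20 higher genes, edgeR's exact test gave 45 lower, a fit to the compared lines alone 48 and 38, and limma voom with quality weights 55 and 44. Library totals alone gave 11 higher genes and 64.5% of calls lower, beside 53.5%. A minimum absolute log2 fold change of 1 left 4 lower and 3 higher. Keeping genes at 0 in a line gave 139 lower genes, 100 of them listed at 0 in H689A/F667I. The cause of the other shifts was not tested. Calls were lost for 3 genes with DESeq2 (CSNK1E, NEFM and SRRM2), for 7 with counts thinned to the smallest library and for 12 with library totals alone. Replicate numbers did not pair the samples: the correlations of same-numbered samples' deviations were -0.052, 0.020 and -0.028. With the replicate number as a block 23 genes were lower and 17 higher, and with the GC trend also removed 20 and 16. Low counts give ST6GAL2, NWD2 and PKP3 wide intervals, and thinning ended the call of ST6GAL2 but not those of NWD2 and PKP3. The call of PKP3 was lost under 3 of the 13 settings that could test it. These were library totals alone and the replicate block with or without removal of the GC trend.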
